A study of Drosophila melanogaster with 103 samples.

Results

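Scm (Sex comb on midleg) peaks of 2 cultured Drosophila melanogaster lines, D17 and S2, were compared. All 2276 D17 and 1505 S2 peaks of the deposited Scm lists were taken, 3781 of the 227654 peaks of the series. A peak was shared when a peak of the other line overlapped it by at least 1 bp, and line-only otherwise. The series profiled chromatin immunoprecipitated DNA by sequencing in 103 libraries from D17, S2 and Kc167 cells. D17 (ML-DmD17-c3) is a line from imaginal disc tissue, and S2 (S2-DRSC) and Kc167 are embryonic lines with blood cell features. Each is a single established line, cultured by its stock centre's recipe, with no treatment or engineered allele in the labels. Scm was profiled in 2 libraries of D17 and 2 of S2, fixed from different flasks, with 1 input library per line, and Kc167 has no Scm library here.

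Scm belongs to the Polycomb group (PcG), proteins that keep developmental genes silent once they have been turned off. It carries a SAM domain through which it binds Polyhomeotic (Ph), a subunit of Polycomb repressive complex PRC1, and it is known to contact PRC2 and Sfmbt as well. PRC1 also holds Polycomb (Pc), whose chromodomain reads H3K27me3, and Posterior sex combs (Psc). PRC2 writes H3K27me3 through E(z), with Pcl as an accessory subunit. In flies both complexes are brought to Polycomb response elements by DNA-bound factors such as Pho, GAF and Spps.

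The files hold 1 peak list per antibody and line, with 20 lists for D17, 20 for S2 and 10 for Kc167. No list gives values per library, so the depth is unknown, the spread over libraries cannot be measured and no test between the lines was possible. Intervals in brackets are exact 95% binomial intervals unless named otherwise, and they cover counting error only. All intervals count each peak as independent, although neighbouring peaks can share a domain. Fold is the authors' fold enrichment of a peak over background and was ranked only within its own list. The lists differ in length: the Pcl list has 4065 peaks in D17 and 15159 in S2, and no share that involves S2 Pcl was corrected for this. Peak numbers are skipped in both Scm lists, 96 (4.05%) in D17 and 123 (7.56%) in S2. Of the line-only peaks, 90 of 1636 in D17 and 44 of 901 in S2 lay where the other line's list skips a number, so for these the absence of a peak in the other line is uncertain.

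Most Scm peaks were found in 1 line only, but nearly all of the strongest were found in both. Of the D17 peaks, 640 of 2276 (28.1%, 26.3 to 30.0%) had an S2 peak, and 1636 (71.9%) had none. Of the S2 peaks, 604 of 1505 (40.1%, 37.6 to 42.7%) had a D17 peak, and 901 (59.9%) had none. These shares are set by the rule and by the lengths of the lists. Joined where they overlapped, the peaks gave 3130 regions, of which 593 were shared, 1636 D17-only and 901 S2-only.

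Shared peaks were higher and wider than line-only peaks. The median fold was 2.38 for shared and 1.63 for line-only peaks in D17, and 2.5 and 1.68 in S2. As ranks within the list, the medians stood at percentile 80.9 against 40.1 in D17 and 75.9 against 36 in S2. The median width was 910.5 bp for shared and 449 bp for line-only peaks in D17, and 868 and 431 bp in S2. A wider peak can be overlapped more easily. The shared counts were also taken with the summit in place of the peak, as given in the closing section. The other line's peaks kept their full width there, so the part of width in the shared counts was not removed.

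The share of peaks with a counterpart climbed steeply along the fold ranking. In the lowest 10% of D17 folds, 22 of 227 peaks (9.69%) were shared, and in the highest, with folds from 4.03 to 36.4, 205 of 228 (89.9%, 85.2 to 93.5%). In S2 the lowest 10% held 12 shared peaks of 150 (8.0%) and the highest, with folds from 9.23 to 56.0, 147 of 151 (97.4%, 93.4 to 99.3%). Each of the 50 peaks with the highest folds was shared in both lines, as were 99 of the highest 100 in each. Among peaks with a fold under 2, shared peaks made up 254 of 1693 (15%) in D17 and 217 of 991 (21.9%) in S2. Seen from the other side, 1439 of the 1636 D17-only peaks (88.0%) and 774 of the 901 S2-only peaks (85.9%) had a fold under 2.

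**Figure D1:**
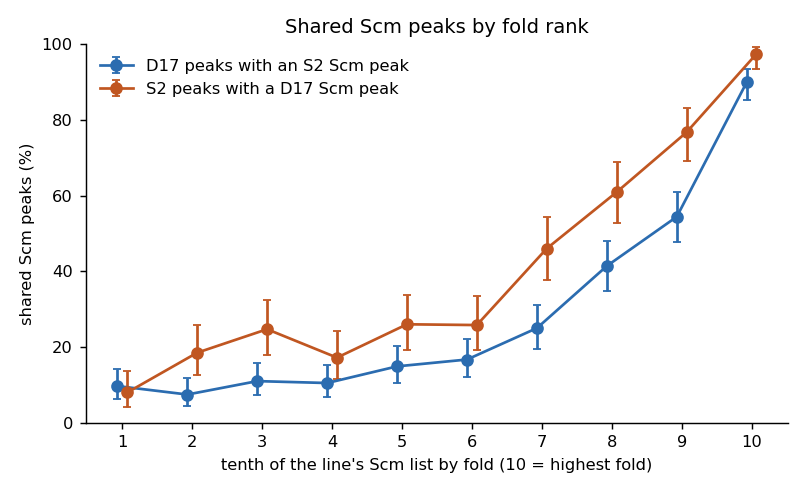
Share of Scm peaks with a peak of the other line (percent, vertical axis) in each successive 10% of a line's list ordered by the authors' fold (horizontal axis, 10 marks the highest folds); bars are exact 95% binomial intervals. The share stays below 20% over the lower part of the D17 list and reaches 89.9% in D17 and 97.4% in S2 among the highest folds.

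Where both lines had a peak, its position and rank were much alike. In 544 of the 593 shared regions each line had exactly 1 peak, and their summits lay a median of 33.5 bp apart, with 397 (73.0%) within 100 bp. Across the 593 regions, the folds in the 2 lists had a Spearman rho of 0.83, given as a description without a p because neighbouring regions share domains and each list comes from its own pooled or combined libraries. In 134 regions the rank was above percentile 90 in both lines. In 20 regions the percentile was at least 50 higher in D17, and in 9 at least 50 higher in S2.

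Most shared regions carried the repressive mark in both lines. H3K27me3 without H3K27ac was found in both lines at 360 of 593 (60.7%), with median ranks at percentile 87.5 in D17 and 83.1 in S2. A second group of 64 regions (10.8%) had H3K27ac, a mark of active promoters and enhancers, without H3K27me3 in both lines, and ranked at percentile 81.5 in D17 and 71.7 in S2. The mark was swapped at 23 regions: 4 had H3K27me3 alone in D17 and H3K27ac alone in S2, and 19 the reverse. Scm therefore had a peak in both lines at these 23 regions while the marks differed.

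**Figure D2:**
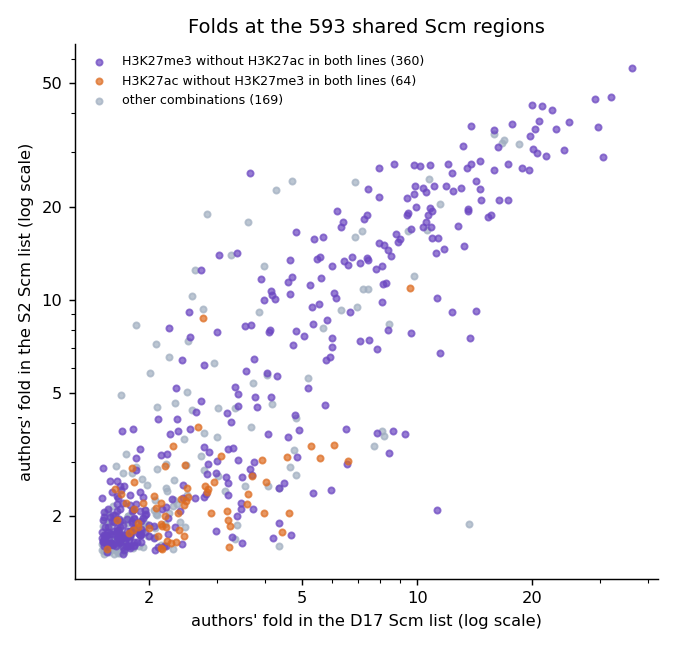
The authors' fold in the D17 list (horizontal, log scale) and in the S2 list (vertical, log scale) for each of the 593 shared Scm regions, coloured by the H3K27 marks over them. Regions with H3K27me3 alone in both lines (360) extend over the whole range up to 36.4 in D17 and 56.0 in S2, and the 64 with H3K27ac alone in both lines lie mostly at low folds.

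The highest shared regions were in and beside homeotic and other developmental regulators. The first was a region of 1662 bp between Ubx and abd-A (3R, 16763104 to 16764765, dm6), with folds of 36.4 in D17 and 56.0 in S2, the highest of both lists. It lay 23.5 kb from Glut3 and 11.8 kb from CG31275, the nearest protein-coding genes. Abd-B, the most posterior homeotic gene, had a region at 3R, 16947131 to 16951683, with 29.0 and 44.6.

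Antp had its highest region over one end of the gene (3R, 6998606 to 7003173), with 4 D17 peaks and 1 S2 peak and folds of 22.4 and 40.9. Inside Ubx (3R, 16700808 to 16704461) the folds were 21.2 and 42.2. The GATA factor gene grn (3R, 8180163 to 8183093) had 24.9 and 37.7, and the region by dia and cad, the latter a posterior homeobox gene (2L, 20769740 to 20772649), had 20.8 and 37.8. Dfd, a homeotic gene of the head (3R, 6790711 to 6793057), had 19.9 and 42.5. All 8 regions chosen by rank, of which not every one is described, carried H3K27me3 without H3K27ac in both lines, and all 8 had peaks of Pc, Ph, Psc, E(z), Pcl, Pho, Sfmbt, Spps and GAF in both. In Kc167, whose Scm was not profiled here, the 8 held Pc, Ph, Psc, Pho and Spps peaks as well.

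Some shared regions differed in rank or in fold, and the ones given here were picked with their values in view, from 216 shared regions above percentile 90 in at least 1 line. A region by Pura (3L, 7632427 to 7633742) had a fold of 4.35 in D17 (percentile 91.0) and 1.6 in S2 (percentile 20.3), and peaks from 11 of the other 19 D17 lists but 4 of the S2 lists. One by rib (2R, 19270987 to 19272533), a BTB-domain gene of tracheal and salivary gland development, had 4.2 (percentile 90.6) and 1.71 (percentile 39.7). In the other direction, a region between E(Pc) and inv (2R, 11467976 to 11470582) had 2.83 in D17 (percentile 84.5), with H3K27ac alone, and 19.0 in S2 (percentile 95.4), with H3K27me3 alone. Its rank was high in both lists, and it differed mainly in fold, which has no common scale across the lists.

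PRC1 and PRC2 lay over shared peaks several times as often as over line-only peaks of the same line. All of Pc, Ph and Psc overlapped 56.4% of shared and 10.8% of line-only peaks in D17, and 57.1% and 9.54% in S2. The difference was 45.6 percentage points in D17 and 47.6 in S2. E(z) and Pcl together overlapped 45.6% of shared and 6.36% of line-only peaks in D17, and 53.1% and 9.21% in S2. All of these 5 proteins were at 268 of 640 shared D17 peaks (41.9%) and 286 of 604 shared S2 peaks (47.4%), against 63 of 1636 (3.85%) and 50 of 901 (5.55%) line-only peaks.

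Taken singly, Pc was at 81.7% of shared and 31.7% of line-only peaks in D17, while S2 gave 82.3% and 41.4%. Ph, the direct SAM-domain partner, was at 64.7% and 18.6% in D17, while S2 gave 70.4% and 19.4%. Psc was at 79.4% and 25.4% in D17, while S2 gave 70.5% and 20.1%. The binomial intervals of the classes lay apart for all 3 PRC1 subunits in both lines. They count neighbouring peaks as independent and do not measure the spread over libraries, so this is a description. The catalytic E(z) was at 49.4% and 8.62% in D17, while S2 gave 55.3% and 12.7%. Pcl was at 70.2% and 19.8% in D17, while the long S2 Pcl list gave 91.4% and 80.4%.

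The DNA-bound recruiters and their partners split in the same manner. Pho was at 63.4% of shared and 20.3% of line-only peaks in D17, while S2 gave 67.2% and 22.6%. Sfmbt, an MBT-domain protein that binds Pho, was at 65.0% and 18.3% in D17, while S2 gave 63.7% and 18.5%. Spps was at 64.1% and 19.9% in D17, while S2 gave 71.5% and 19.9%. GAF, which binds GA repeats, was the least frequent of these factors, at 49.1% and 12.7% in D17, while S2 gave 49.0% and 9.1%. The C-terminal antibody to Trithorax (TrxC), the activator that opposes the PcG, was at 55.3% and 10.8% in D17, while S2 gave 54.6% and 29.2%. Engrailed, profiled in D17, was at 31.1% and 12.2%, and the cohesin subunit Rad21, profiled in S2, at 36.9% and 11.7%.

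**Figure D3:**
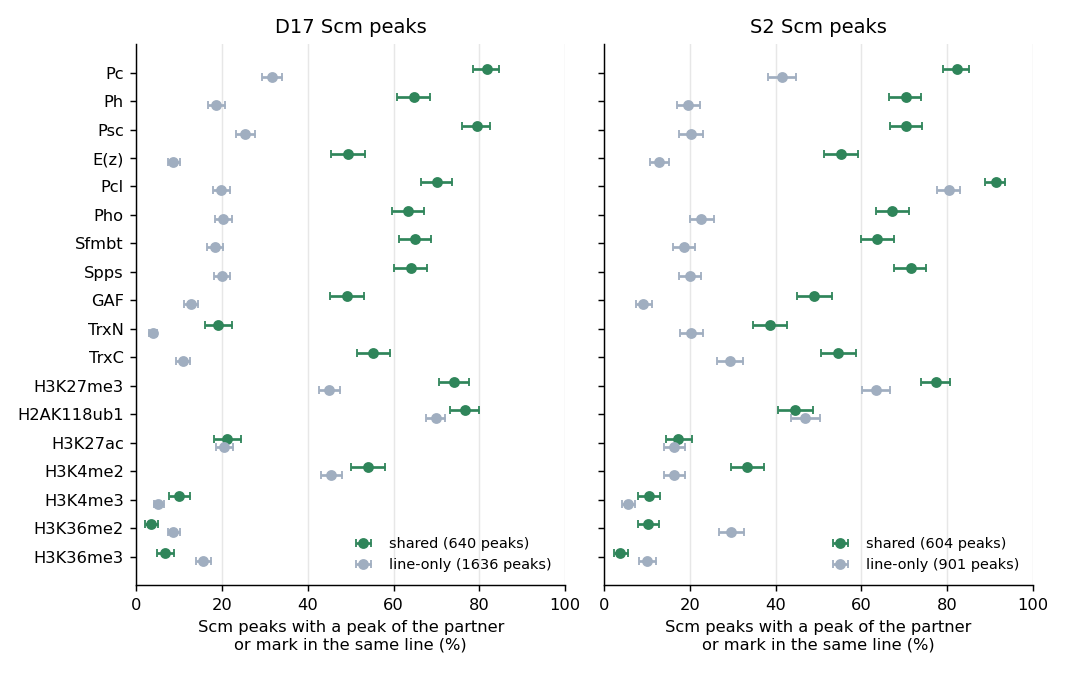
Percent of Scm peaks (horizontal axis) overlapped by at least 1 bp of a peak of each protein or mark of the same line, for shared and line-only peaks of D17 and S2; bars are exact 95% binomial intervals. Shared peaks lie to the right of line-only peaks for each PcG protein, by less for S2 Pcl (91.4% and 80.4%), while the H3K27ac intervals of the classes overlap in both lines.

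Where peaks overlapped, the summits of Scm and Ph nearly coincided. The median distance was 29 bp at shared D17 peaks and 26 bp at shared S2 peaks, and 60 and 36 bp at line-only peaks. For Sfmbt the distances at shared peaks were 20.5 bp in D17 and 19 bp in S2, and for Pho 24 and 19 bp. Pc summits lay farther away, by a median of 297 bp at shared D17 peaks and 97 bp at shared S2 peaks. Psc, Pcl and Spps were about as near as Ph at shared peaks, with 30 and 26 bp for Psc, 25 and 32 bp for Pcl and 32 and 26.5 bp for Spps. E(z) was farther away in D17, at 60 bp, but not in S2, at 29 bp. Nearness therefore did not single out the direct partners.

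Of the H3K27 marks, H3K27me3 separated the classes in both lines and H3K27ac in neither. H3K27me3 covered 74.2% of shared and 45.0% of line-only D17 peaks, a difference of 29.2 percentage points, and 77.3% and 63.5% of S2 peaks, a difference of 13.8. H3K27ac covered 21.1% and 20.5% in D17, with a difference of 0.556 points, and 17.2% and 16.3% in S2, with 0.903. Both H3K27ac differences had 95% Newcombe intervals that included 0, from -3.05 to 4.38 in D17 and from -2.89 to 4.84 in S2, and their sign changed with the settings tried. H2AK118ub1, the mark written by PRC1, covered 76.7% of shared and 69.9% of line-only peaks in D17 and 44.5% and 46.9% in S2. H3K36me3, found along transcribed gene bodies, covered 6.56% of shared and 15.6% of line-only peaks in D17, and 3.64% and 9.88% in S2. The H3K36me3 lists cover 24.0 Mb in D17 and 20.6 Mb in S2. No share of the genome is given beside these values, so they compare the classes only. H3K36me2 covered 3.28% and 8.62% in D17, and 10.1% and 29.6% in S2. The H3K4 marks were more frequent at shared peaks. H3K4me3 covered 9.84% and 5.13% in D17, and 10.3% and 5.55% in S2. H3K4me2 covered 54.1% and 45.5% in D17, and 33.3% and 16.2% in S2. Over the Scm summit alone the gaps were smaller. H3K4me3 was then at 5.47% and 3.36% in D17, and 5.96% and 4.44% in S2. H3K4me2 was at 40.8% and 40.1% in D17, and 19.0% and 12.9% in S2.

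A large group of D17-only peaks had none of the 5 PRC1 and PRC2 proteins over it. They numbered 879 of 1636 (53.7%, 51.3 to 56.2%), with a median fold of 1.59, and 599 of them also lacked H3K27me3. Shared D17 peaks without any of the 5 were 45 of 640 (7.03%). In S2 the same share was 73 of 901 line-only peaks (8.1%) and 4 of 604 shared peaks (0.662%), and the long Pcl list bears on both. Leaving PRC2 aside, 56.4% of D17-only and 48.6% of S2-only peaks had none of Pc, Ph and Psc.

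Within the upper 25% of each list by fold, line-only peaks did carry PcG proteins, but fewer of them lay in H3K27me3. In D17 this band held 383 shared and 186 line-only peaks, and in S2 312 and 65. Ph was at 95.3% of the shared and 91.9% (87.0 to 95.4%) of the line-only peaks of the band in D17, and at 98.1% and 80.0% (68.2 to 88.9%) in S2. Spps was at 93.7% and 92.5% in D17, while S2 gave 98.7% and 83.1%. Pc was at 88.3% and 66.7% in D17, while S2 gave 95.2% and 80.0%. E(z) was at 75.7% and 41.4% in D17, while S2 gave 84.9% and 60.0%.

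H3K27me3 covered 72.6% (67.8 to 77.0%) of the shared and 44.6% (37.3 to 52.1%) of the line-only peaks of this band in D17. In S2 it covered 84.3% (79.8 to 88.1%) and 44.6% (32.3 to 57.5%). H3K27ac went the other way, covering 24.0% of shared and 39.8% of line-only D17 peaks, and 13.8% and 38.5% of S2 peaks. The classes were therefore not alike in H3K27ac once peaks of high fold were set side by side. Within the band the shared peaks still had the higher folds, with medians of 4.28 and 2.63 in D17 and 8.33 and 3.19 in S2, and the part of that gap in these shares was not tested.

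In the lower 50% of each list the picture was different. Ph was at 7.38% of shared and 4.53% of line-only peaks in D17, while S2 gave 23.9% and 9.34%. Pc was at 59.8% and 21.2% in D17, while S2 gave 57.7% and 31.6%. H3K27me3 covered 77.9% and 42.1% in D17, and 78.2% and 65.2% in S2. Weak shared peaks therefore lay in H3K27me3 about as often as strong ones, but without a Ph peak in most cases.

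The other line was then examined at line-only regions. Of the 1636 D17-only regions, 699 (42.7%) had none of Pc, Ph, Psc, E(z) and Pcl in S2, and 8 had all 5. Of the 901 S2-only regions, 616 (68.4%) had none in D17, and 5 had all 5. Pc was the PRC1 subunit that had a peak in the other line at the highest share in both comparisons. Where a D17-only region had Pc in D17, S2 had Pc at 254 of 518 (49.0%, 44.6 to 53.4%), beside 51.9% of all 2529 D17 Pc peaks. In this and each later comparison, the first share counts Scm regions. The share set beside it counts whole peaks of the partner at any site, shared Scm regions included. The 2 differ in width, so the gap between them is not a like-for-like difference. Where an S2-only region had Pc in S2, D17 had it at 191 of 373 (51.2%), beside 60.1% of all S2 Pc peaks. Over all line-only regions, with or without Pc in their own line, the other line had Pc at 16.3% of D17-only and 23.1% of S2-only regions.

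Psc was present in the other line less often. At D17-only regions with D17 Psc, S2 had Psc at 60 of 416 (14.4%, 11.2 to 18.2%), beside 62.1% of all D17 Psc peaks. At S2-only regions with S2 Psc, D17 had it at 42 of 181 (23.2%), beside 38.8% overall. For Ph the shares were 134 of 305 (43.9%) beside 71.7% in D17, and 50 of 175 (28.6%) beside 64.1% in S2. For E(z) they were 43 of 141 (30.5%) beside 56.3%, and 23 of 114 (20.2%) beside 51.7%. Pho was also found at 70 of 332 (21.1%) beside 53.8%, and at 58 of 204 (28.4%) beside 46.5%.

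All of Pc, Ph and Psc were present together in the other line at 9 of 177 D17-only regions that had the 3 in D17 (5.08%), and at 5 of 86 such S2-only regions (5.81%). At shared regions this was 305 of 348 (87.6%) from D17 and 305 of 341 (89.4%) from S2. H3K27me3 was present in the other line more widely, at 530 of 736 D17-only regions (72.0%) and 287 of 572 S2-only regions (50.2%), beside 50.3% of all D17 and 33.0% of all S2 H3K27me3 peaks. The latter counts weigh short domains as much as long ones. GAF was present in the other line at 149 of 208 D17-only regions (71.6%) beside 80.1% of all D17 GAF peaks, and at 48 of 82 S2-only regions (58.5%) beside 76.2% of all S2 GAF peaks.

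**Figure D4:**
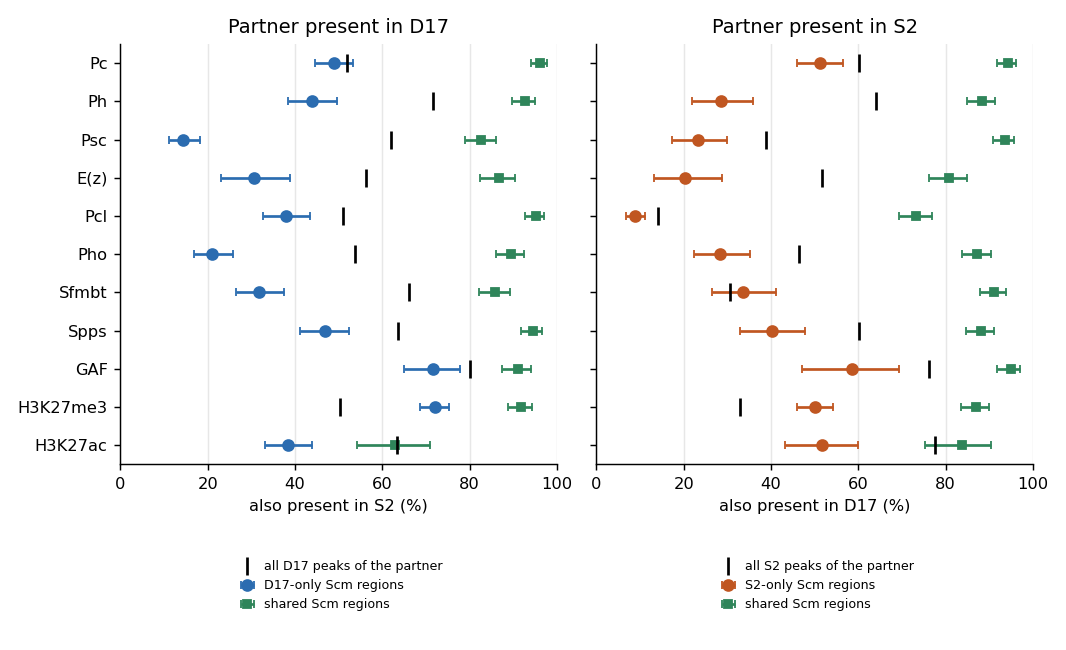
Of Scm regions with a given protein or mark in the named line, the percent that also have it in the other line (horizontal axis), for line-only regions (circles), shared regions (squares) and all peaks of the protein in that line (ticks); bars are exact 95% binomial intervals. At line-only regions Pc lies near or below its tick (49.0% and 51.9% in D17) and Psc far below it in D17 (14.4% and 62.1%), while H3K27me3 lies above its tick in both panels. Ticks count whole peaks of the protein or mark at any site, and circles and squares count Scm regions.

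Of the line-only regions with the highest folds, 7 of 8 in D17 and 8 of 8 in S2 had all of the 5 PRC1 and PRC2 proteins in their own line. The highest of D17 was by so, a homeobox gene of eye development (2R, 7428931 to 7430028), with a fold of 11.9 (percentile 97.7), H3K27me3 alone and peaks from 12 of the other 19 lists. S2 also had H3K27me3 there, with weak Pc (fold 1.81, percentile 30.2 of the Pc list) and Ph (1.55, percentile 4.13) and no Scm. Elsewhere near so, S2 had Scm peaks up to a fold of 13.1. The pair-rule gene run (X, 20690308 to 20691026) followed with 7.02, and S2 had Ph at 2.17, Psc and Spps but neither H3K27 mark. A region between Awh and Fie (3L, 3878629 to 3879831) had 6.86 in D17 and no peak of any S2 list. The class belongs to the region and not to the gene that names it. Of the genes named here and in the following paragraphs, so, pros, zfh2, pnr and inv had Scm peaks of both lines within 2 kb. By contrast, run had them in D17 alone and bab1 in S2 alone.

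The next D17-only regions were more varied. Pura (3L, 7594386 to 7597623) had 6.45 with both H3K27 marks in D17 and no peak of any list in S2. Neto (X, 13463698 to 13464395), an auxiliary subunit gene of glutamate receptors, had 5.97 with neither mark in either line. Pepck2 (2R, 18528542 to 18529521), a gene of gluconeogenesis, had 5.86, with H3K27me3 in D17 and peaks of Ph, Psc, E(z), Pcl, Pho, Sfmbt, Spps and GAF in S2 without Scm. A region between NimC3 and hll (2L, 14023598 to 14024738) had 5.29, H3K27ac alone in both lines and all of the 5 PRC1 and PRC2 proteins in both. Scm had no S2 peak there, and Pc ranked lower in S2 (fold 2.07, percentile 49.1) than in D17 (5.56, percentile 91.1). Ph stood at percentile 74.1 in D17 and 71.2 in S2. The region at psq (2R, 10603595 to 10604477), a BTB-domain DNA-binding factor gene, had 5.05 and H3K27ac alone in both.

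The highest S2-only region was by Gle1 and CG8635 (2R, 8632154 to 8633470), with a fold of 16.0 (percentile 94.1), H3K27me3 alone and peaks from 15 of the other 19 lists. D17 had Ph there at 1.69, with Psc, Pcl, Pho, Sfmbt, Spps and GAF, but no Pc, E(z) or H3K27me3. CG5888 (2L, 16405268 to 16407942) had 10.6, and the homeobox gene scro (3L, 24723072 to 24724462) also 10.6.

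The BTB factor gene bab1 (3L, 1102315 to 1107206) had a fold of 8.13 in S2 and peaks from 17 of the other 19 S2 lists, the most of these 8 regions. Ph was also high at this region in D17 (fold 7.16, percentile 70.7), where Scm had no peak. The prospero gene pros (3R, 11340011 to 11343719), a regulator of neural fate, had 6.75 in S2 at this region, and D17 had H3K27me3 but none of the 5 PRC1 and PRC2 proteins. Near the whole gene, D17 had 8 Scm peaks, the highest at 6.97, and S2 had 5, the highest at 9.48. Also among the highest 8 S2-only regions were chinmo, with 8.04, and zfh2, with 7.83, and at both the H3K27 mark differed between the lines.

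Few line-only regions had H3K27me3 alone where Scm was present and H3K27ac alone where it was absent. They numbered 8 of 1636 D17-only regions (0.489%) and 30 of 901 S2-only regions (3.33%). The reverse, H3K27ac alone with Scm and H3K27me3 alone in the other line, was found at 47 D17-only (2.87%) and 3 S2-only regions (0.333%). The H3K27me3 lists cover 17.6 Mb in D17 and 26.2 Mb in S2, and the part of this in the counts was not tested. Of the 30 S2-only regions, the highest were chinmo (2L, 1655991 to 1658369), a BTB zinc finger gene of neuronal timing, and zfh2 (4, 500803 to 503659), a zinc finger homeobox gene of limb development. At zfh2 Pc stood at 19.9 (percentile 98.4) in the S2 list and at 1.73 (percentile 30.1) in the D17 list, while Ph stood at 13.3 (percentile 92.6) and 10.2 (percentile 80.9). At chinmo Ph was found in both lines, at 8.03 in S2 and 3.96 in D17, and Pc in S2 alone at 7.99. Shared Scm regions lay on both sides of the chinmo region. Among them, 2L, 1642748 to 1646498, had 15.91 in D17 and 35.37 in S2.

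Egfr (2R, 21525598 to 21526374), the epidermal growth factor receptor gene, had a fold of 5.14 in S2, and D17 had neither PRC1 nor PRC2 there but H3K27ac. A region between Syx7 and croc (3L, 21460204 to 21461034) had 3.33, one by inv (2R, 11471833 to 11472494) had 2.76, and nahoda (2R, 22911275 to 22912261) had 2.33. Among D17-only regions of this kind, one by Cys and neighbouring genes (3R, 14568194 to 14569285) had 4.46. Regions by RanBPM and CG12896 (3.37), Prx6b (3.08) and Prx6c (2.03) lay within 7 kb of each other on 2R and are not independent. The GATA factor gene pnr (3R, 16037921 to 16038342) had 2.73 in D17, and a region by nAChRalpha5 and NimC4 (2L, 14047561 to 14048499) had 1.56.

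More genes lay near Scm in D17 than in S2, and the D17 list is the longer one. A gene was near when its body came within 2 kb of a peak. Of 13946 protein-coding genes, 1711 (12.3%) were near a D17 peak and 948 (6.8%) near an S2 peak. Both lines had a peak near 482 genes (3.46%), D17 alone near 1229 (8.81%) and S2 alone near 466 (3.34%).

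Developmental regulators were near Scm in both lines far more often than genes at large. All 8 homeotic genes had peaks in both lines, with a median highest fold of 17.3 in D17 and 31.0 in S2. Of 29 segmentation genes, 19 were near Scm in both lines and 7 in D17 alone. Of 31 appendage genes, 25 were near Scm in both, 3 in D17 alone and 2 in S2 alone. Of 10 eye and head genes, 9 were near Scm in both and hbn, a homeobox gene, in S2 alone at 1.69. Of 37 neural and muscle genes, 22 were near Scm in both. None of 26 housekeeping genes was near a peak of either list, where 12.3% and 6.8% of all genes were. A longer gene body can come near a peak more easily, and no count was adjusted for gene length. The gene lists were chosen with earlier results of these data known, so these shares describe the lists and are not a test.

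**Figure D5:**
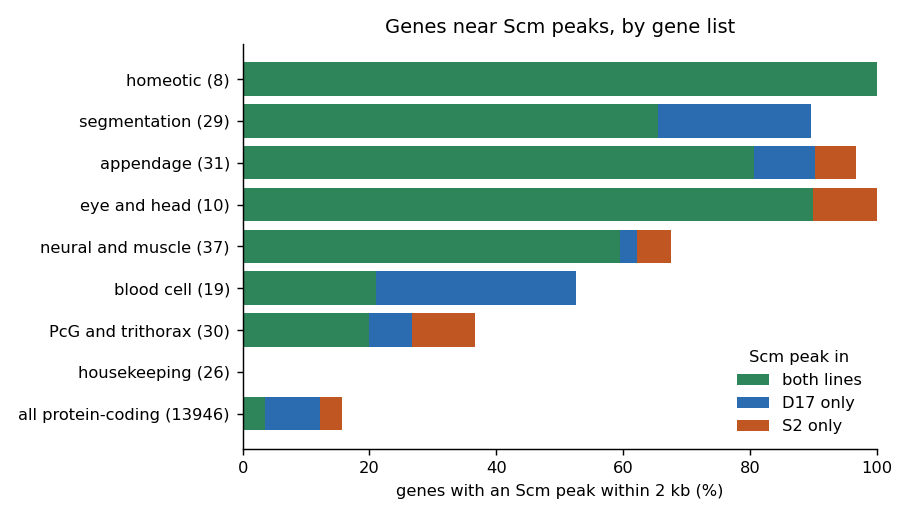
Percent of the genes of each list (number matched in brackets) with an Scm peak within 2 kb of the gene body in both lines, in D17 alone or in S2 alone, with all 13946 protein-coding genes at the bottom. Homeotic genes are near Scm in both lines without exception, and blood cell genes have the widest band in D17 alone (6 of 19).

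The homeotic genes shared their strongest peaks but differed in the number of peaks listed. These are not counts of sites, because a list can split a site: the highest Antp region held 4 D17 peaks and 1 S2 peak. Antp had 28 D17 and 15 S2 peaks, Abd-B 22 and 14, Ubx 15 and 9, and abd-A 13 and 7. The more anterior genes had more peaks in S2: lab had 2 in D17 and 7 in S2, pb 1 and 5, Dfd 2 and 4, and Scr 4 and 6. The H3K27me3 domain with the most Scm peaks held abd-A and Abd-B in both lines. It spanned 215 kb with 82 peaks in D17, of which 55 were shared, and 219 kb with 53 peaks in S2, of which 45 were shared.

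Genes of the homeotic, segmentation, appendage, and PcG and trithorax lists with Scm in 1 line were mostly near weak peaks. In D17 alone, the pair-rule gene run had the highest fold, 7.02. The other segmentation genes were prd with 3.35, sob and ftz with 1.73 each, tll with 1.58, hb with 1.54 and Wnt4 with 1.51. Among appendage genes, bowl had 2.89, the BMP ligand gene dpp 2.56 and ct 1.94. Of the PcG and trithorax group, ash2 had 2.46 and Spps 2.07. The S2 list skips a number at prd, dpp, Spps and ash2, so the absence of an S2 peak is uncertain at these 4.

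In S2 alone, bab1 had 16 peaks, the highest at 8.13, and al, a homeobox gene of the distal limb, 1 peak at 1.82. The PcG genes Asx, Sfmbt and pho had 2.61, 2.45 and 1.6. Another 6 PcG and trithorax genes had peaks in both lines, among them ph-p and ph-d with 9.58 in D17 and 10.9 in S2, Psc with 5.19 and 5.58 and Su(z)2 with 6.34 and 9.23. The gene for Scm itself had no peak in either list, but the D17 list skips a number there, so its absence in D17 is uncertain.

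Blood cell genes, like genes at large, were more often near Scm in D17, which has the longer list, than in S2. Of 19 genes, 10 were near a D17 peak (52.6%) and 4 near an S2 peak (21.1%), beside 12.3% and 6.8% of all genes. The 4 with peaks in both lines were srp, zfh1, lz and gcm, all transcription factor genes. The 6 with D17 peaks alone were ush with 3.68, PPO2 with 1.76, He and NimC1 with 1.61 each from the same peak, vkg with 1.6 and Hml with 1.58. The lowest fold of the D17 list was 1.5. PPO2 lay in H3K27me3 in both lines, ush and Hml had H3K27ac in both, and He had neither mark in either line. NimC1 and vkg had H3K27ac in S2 and not in D17, and NimC1 also had H3K27me3 in S2 and not in D17.

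Line-only peaks lay inside genes more often than shared peaks did, with no share of the genome given beside them. The summit fell in a gene body for 46.7% of shared and 70.8% of line-only peaks in D17, and for 46.9% and 65.0% in S2. A gene end lay within 500 bp of the summit for 21.7% and 14.3% in D17, and for 22.5% and 10.7% in S2. Line-only peaks were scattered: their summits lay a median of 110 kb from the nearest shared peak in D17 and 66.5 kb in S2. Still, 206 of 1636 in D17 (12.6%) and 153 of 901 in S2 (17%) lay within 5 kb of one.

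A larger share of long than of short H3K27me3 domains held Scm. Of D17 domains of 30 kb or more, 154 of 176 (87.5%) had an Scm peak and 85 (48.3%) a shared one. In S2 the counts were 146 of 235 (62.1%) and 99 (42.1%). Of domains under 10 kb, 20.8% in D17 and 13.1% in S2 had an Scm peak, and no count was adjusted for the length of the domains. Of the line-only peaks inside H3K27me3, 343 of 736 in D17 and 252 of 572 in S2 lay in a domain that also held a shared peak.

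On the X chromosome, which carries 15.8% of the protein-coding genes, lay 13.0% of the D17 and 6.71% of the S2 Scm peaks. Of these, 60 of 297 (20.2%) were shared in D17 and 57 of 101 (56.4%) in S2. On 3R, home of the homeotic complexes, 37.2% of D17 and 46.4% of S2 peaks were shared, and on 3L 17.9% and 23.3%. Copy number and sex chromosome content of the lines were not examined here.

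Seen from its partners, Scm was found at most of the strongest Pc, Sfmbt, Pho and Spps peaks. An Scm peak lay over 645 of 2529 D17 Pc peaks (25.5%) and 607 of 2387 S2 Pc peaks (25.4%), but over 86.6% and 76.6% of the highest 10% of Pc folds. For Sfmbt it was 35.6% of D17 and 13.2% of S2 peaks, and 95.7% and 71.4% of the highest 10%. For Ph it was 21.1% and 15.7%, and 33.2% and 40.0% of the highest 10%, so that most of the highest Ph peaks had no Scm peak. For E(z) it was 21.5% and 19.5%, and 17.1% and 36.9% of the highest 10%. Of the highest 10% of Pho folds, 76.4% in D17 and 63.5% in S2 had Scm, and of Spps 59.2% and 50.9%. For Psc these were 74.6% and 28.3%, for Pcl 29.7% and 31.9% and for GAF 17.8% and 10.6%.

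Scm had a smaller shared part than the other PcG proteins in D17. Overlap with the other line's list was 28.1% for Scm, against 51.9% for Pc, 71.7% for Ph, 62.1% for Psc, 56.3% for E(z), 51.1% for Pcl, 66.1% for Sfmbt and 53.8% for Pho. In S2 it was 40.1% for Scm, 60.1% for Pc, 64.1% for Ph, 38.8% for Psc, 51.7% for E(z), 46.5% for Pho, 30.6% for Sfmbt and 14.1% for Pcl. Each share depends on the length of the other list. In the highest 10% of each D17 list the share was 89.9% for Scm and ran from 93.2% for Sfmbt to 99.4% for Ph among the other 7. In S2 it was 97.4% for Scm, 97.1% for Pc, 99.0% for Ph, 98.4% for Psc, 96.7% for Pho and 90.2% for Sfmbt, but 80.1% for Pcl and 78.8% for E(z).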

How the data were processed

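The authors trimmed, aligned and called peaks with Trim Galore 0.6.4, Bowtie2 2.3.5.1, SAMtools 1.13, MACS2 2.2.6 and bedtools 2.29.2 on dm6 (BDGP6), per the submitters' processing notes. How libraries and input were combined is not given in the sources used here. For each peak the deposited lists give a fold enrichment (a ratio), a −log10 q-value and a score. The score equals 10 times −log10 q, with differences of at most 1. The lowest deposited Scm fold is 1.5.

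Scm peaks were classed by overlap of at least 1 bp, ranked by fold within the list and compared with every other list. Genes came from RefSeq (Release 6 plus ISO1 MT, no strand). Members, gene lists and rules were chosen with earlier results of these data known. Named regions were the 8 shared regions with the highest lower percentile, the 8 line-only regions per line with the highest fold, and up to 6 per line with swapped H3K27 marks; named genes were list members near Scm in 1 line. Of the named regions, 2 are not reported here. Code was tested on simulated intervals. No test was made; per-library values and sequences were not used here. The tools were pandas 2.3.3, SciPy 1.17.1, NumPy 2.4.6 and matplotlib 3.10.9 under Python 3.11.15.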

Additional observations from a re-analysis of the deposited data

How the results depend on the processing

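The PRC1, PRC2 and H3K27me3 differences and the difference in fold rank kept their direction under each alternative tried, whereas the H3K27ac difference ranged from -2.78 to 3.98 points in D17 and from -4.3 (higher-scoring 50% of each Scm list) to 3.99 in S2. Values outside the 95% interval of the reported one, or over 1.5 times a count, are given here, and the cause was not tested. Pc in the other line is a share of all line-only regions here, reported as 16.3% (D17) and 23.1% (S2). With overlap over 50% of the peak width, 24.9% of D17 and 36% of S2 peaks were shared. With a peak of the other line within 1 kb they were 33.0% and 46%, the PRC1 differences 40.0 (D17) and 40.5 (S2), the PRC2 differences 33.6 and 38.5, and Pc in the other line 12.5% and 18.6%. On the higher-scoring 50% of each Scm list, 40.1% and 56.5% were shared, the H3K27me3 difference was 22.7 in D17, the PRC2 differences 45.2 and 49.6, Pc in the other line 27.6% and 32.7%, and genes 508 in D17 only and 204 in S2 only. With lists of equal length, 37.9% of D17 and 35.9% of S2 peaks were shared, Pc was in the other line at 19.5% in D17, the S2 differences were 52.5 for PRC1 and 48.7 for PRC2, and 717 genes were D17 only. With partner peaks over 50% of the Scm peak, the PRC1 differences were 37.0 and 25.1 and the PRC2 differences 26.9 and 20.7. With the higher-scoring 50% of each partner list, differences were 38.9 and 20.2 for H3K27me3, 35.7 and 37.0 for PRC1 and 21.2 and 33.6 for PRC2, and Pc in the other line 9.66% and 17.3%. Within 5 kb, 1877 genes were D17 only.

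Leaving out X and Y or stretches at skipped numbers moved none of 38 values past these limits, nor did summits in place of partner overlap (10 values) or of shared peaks (14), both chosen after seeing the data. No paired analysis was possible because the lists hold no values per replicate, and for the same reason no replicate could be left out. Promoter motifs and the alternative by annotated gene starts were not run, since no promoter sequences and no strands were used here.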
